A study of Mus musculus with 2 samples.

Results

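Fibroblasts of the postischemic kidney are 337 of the 17701 barcodes kept from both single-cell libraries (1.90%). They carried collagen RNA together with *Dcn* or *Pdgfra*, without the leukocyte gene *Ptprc* or the endothelial genes *Cdh5* and *Pecam1*. They also held little of the pericyte gene *Rgs5*. A member had to hold at least 20 UMIs of *Col1a1*, *Col1a2* and *Col3a1* per 10000, at least 2 UMIs of *Dcn* and *Pdgfra* together, no *Ptprc*, no *Cdh5* or *Pecam1*, and fewer than 3 UMIs of *Rgs5*. A UMI, or unique molecular identifier, stands for 1 captured RNA molecule. The rule took 120 of 8468 kept barcodes from *Cre-* (1.42%) and 217 of 9233 in the library labelled PHDTiEC (2.35%). These 9 genes chose the cells, so their levels are given as a description only.

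The libraries came from dissociated kidneys of 1 mouse per genotype, collected 14 days after 1 renal artery had been clamped for 25 minutes, and were sequenced with the 10X Genomics 3′ kit. The control mouse was *Cre-*. The other, PHDTiEC, carried *Phd1f/f*, *Phd2f/f* and *Phd3f/f* alleles and the *Cdh5-CreERT2* transgene, so tamoxifen lets the recombinase act on the 3 floxed oxygen sensor genes. Mice were adult male littermates of 8 to 10 weeks, and both genotypes received 4 intraperitoneal injections of tamoxifen after the injury. The *Cdh5* promoter drives CreERT2 in endothelium, not in fibroblasts, so any difference described here lies in cells that the transgene is not designed to recombine. With 1 mouse per genotype no difference has a replicate check, no test was run, and every interval is a 95% interval of the counting error alone.

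Kidney fibroblasts lie in the interstitium between tubules and capillaries and around larger vessels. They make the fibrillar collagens, proteoglycans and elastic fiber proteins of the matrix, and after injury a share of them takes on smooth muscle actin and other contractile proteins and is then called myofibroblasts. TGF-beta and activins, which act on SMAD proteins, connective tissue growth factor (*Ccn2*) and mechanical tension are known inputs to that state.

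Over all barcodes *Cre-* held 136004367 UMIs and the library labelled PHDTiEC 146758812. Levels are given as CPM, the UMIs of a gene per 1000000 UMIs summed over a class of cells in 1 library. In endothelial barcodes, which should have lost the floxed genes, the library labelled PHDTiEC had more of 2 of the 3 at this 3′ readout. *Egln1* (PHD2) stood at 68.6 and 167 CPM in the *Cre-* and PHDTiEC libraries, *Egln3* (PHD3) at 23.8 and 122, and *Egln2* (PHD1) at 44.4 and 38.0. The readout counts the 3′ end of the transcript, which need not be the deleted part, so it does not check the label. In the fibroblasts the log2 ratio of the library labelled PHDTiEC over *Cre-* was -0.08 for *Egln1* (-0.48 to 0.33) and -0.46 for *Egln2* (-0.99 to 0.08), and *Egln3* had 3 and 5 UMIs. Among kept barcodes 27 occurred in both libraries, but none of these was a fibroblast.

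Depth was alike in both sets of fibroblasts. The median fibroblast held 9972 UMIs and 3017 genes in *Cre-* and 9936 UMIs and 3139 genes in the library labelled PHDTiEC. Totals were 1548613 and 2590685 UMIs. The median mitochondrial share was 3.83% in *Cre-* and 2.36% in the library labelled PHDTiEC, and the same order held over all kept barcodes, at 4.12% and 3.06%. The 3 rule collagens reached a median of 147 and 141 UMIs per 10000. The threshold cut through a thin zone. The members nearest to it held 26.1 and 26.5 per 10000 in *Cre-* and 21.7 and 22.2 in the library labelled PHDTiEC, and the nearest barcodes that met every other condition held 13.4 and 8.84, and 14.4 and 14.2.

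Markers that the rule did not use went with the label. All 16 further fibroblast markers on the list were detected, among them *Mfap5* and *Fbln1* of the elastic fibers, the collagen VI chains, *Tcf21* and *Pdgfrb*. Their summed level was 3900 CPM in *Cre-* and 3742 CPM in the library labelled PHDTiEC, against 310 and 328 CPM in all other barcodes. Because the members were chosen on genes that travel with these, this is a description.

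The genes that most set the fibroblasts apart from other kidney barcodes were secreted regulators and matrix proteins. *Cck*, which encodes the peptide cholecystokinin, was 465-fold higher than in all other *Cre-* barcodes and 208-fold higher in the library labelled PHDTiEC. The WNT regulators *Nkd2* and *Frzb* followed, at 140-fold and 107-fold and at 189-fold and 104-fold. *Spon1*, the matrix protein spondin 1, had 633 and 674 CPM in the fibroblasts and was seen in 95.8% and 97.7% of the cells. Others among the 15 genes ranked highest were *Mfap5*, *Alx1*, *Cpxm1*, *Lama2*, *Srpx2*, *Lgi2*, *Dpt*, *Adamts2*, *Colec12* and *Prelp*. The order holds for these libraries only, since the rule genes and these genes mark the same cells.

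RNA of other cell types was present in the fibroblasts. Proximal tubule markers summed to 457 and 532 CPM in the fibroblasts of the *Cre-* and PHDTiEC libraries against 2843 and 3176 CPM in the other barcodes, and macrophage markers to 309 and 183 CPM against 7683 and 8161. Distal nephron markers stood at 239 and 115 CPM against 2874 and 2714, and neutrophil markers at 10.3 and 40.9 CPM against 854 and 846. Endothelial markers outside the rule gave 220 and 171 CPM, against 219 and 269 CPM in the other barcodes, of which *Emcn* held 164 and 130 in the fibroblasts, while *Kdr* was at 0 in *Cre-*. Mural cell markers outside the rule summed to 110 and 126 CPM, against 82.8 and 92.5 CPM in the other barcodes. They were seen in 47.5% and 52.1% of the fibroblasts, although the pericyte gene *Higd1b* among them was at 0 in both libraries. The Schwann cell markers *Sox10* and *Cdh19* were also at 0 in both. Markers of injured tubules summed to 7971 and 6998 CPM, against 18560.0 and 13895 CPM in the other barcodes, and *Spp1*, the secreted protein osteopontin, accounted for 7707 and 6829 of these. The part of this RNA in the results below was not tested, except where a value without it is given.

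Fibroblasts made up a larger share of the library labelled PHDTiEC. The share was 1.42% (1.18% to 1.69%, exact Clopper-Pearson) in *Cre-* and 2.35% (2.05% to 2.68%) in the library labelled PHDTiEC, a ratio of 1.66 (1.32 to 2.09). Mural cells, the pericytes and smooth muscle cells picked by *Rgs5*, were 160 in each library, or 1.89% and 1.73%. Among barcodes without *Ptprc*, which leaves leukocytes out of the denominator, fibroblasts were 2.96% and 5.03%. Dissociation, capture and the number of other cells all enter such a share and cannot be told apart from the genotype with 1 library each.

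Most genes had nearly the same level in the fibroblasts of both libraries. Of 5373 genes with at least 100 UMIs, the rule genes left out, 38 were at least 2-fold higher in the library labelled PHDTiEC (0.707%) and 43 at least 2-fold lower (0.800%), and the median log2 ratio was 0.02. Of the 43, 30 were left out because they were seen in fewer than 15 *Cre-* cells or drew over 25% of their *Cre-* UMIs from 1 cell, among them the tubule genes *Lcn2*, *Clu*, *Krt7* and *S100g* and the antigen presentation gene *Cd74*. For *Lcn2*, which encodes neutrophil gelatinase-associated lipocalin and marks injured tubules, 43.1% of the 1396 UMIs in *Cre-* lay in 1 cell. Of the 38, 4 were left out for the same reason, *Ccl5* (87.1% of its UMIs in 1 cell), *Gm26917* (72.1%), *Cxcl10* (69.6%) and *Ifit3* (35.4%). The genes described next passed this check on single cells.

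**Figure D1:**
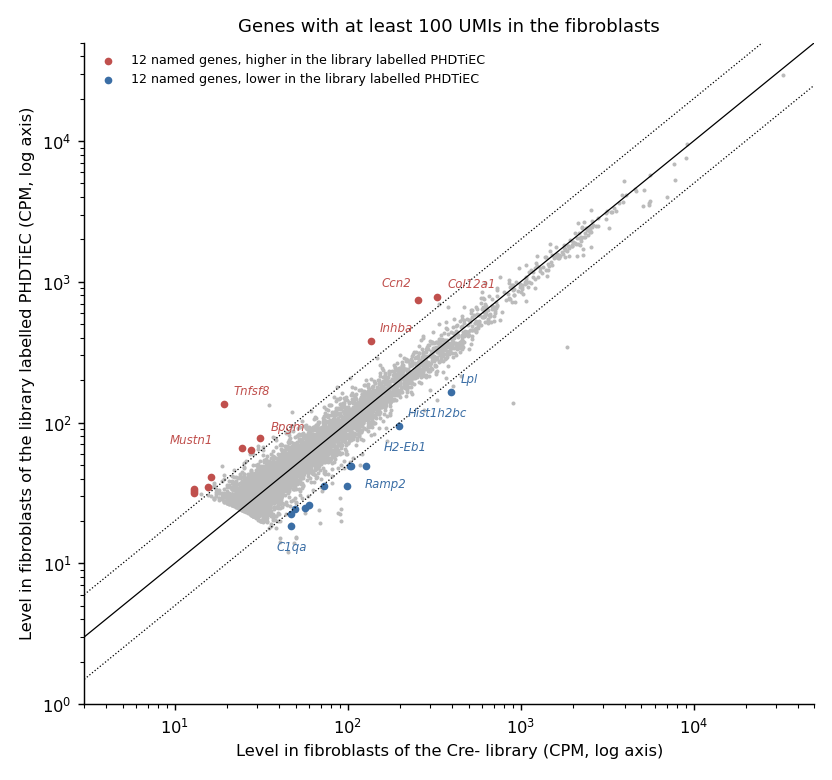
Each point is 1 of 5373 genes with at least 100 UMIs in the fibroblasts, with its CPM in the *Cre-* library on the x axis and in the library labelled PHDTiEC on the y axis, both on log axes, and the solid and dotted lines mark equal level and 2-fold. Most points lie between the dotted lines, while *Tnfsf8*, *Ccn2*, *Inhba* and *Col12a1* (red, higher) and *Lpl* and *H2-Eb1* (blue, lower) stand outside them, with the other named genes as unlabelled colored points or labelled beside them.

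*Ccn2* and *Inhba* had the highest ratios after *Tnfsf8*, which is described further on. *Ccn2* (chr10:24595442-24598683, plus strand, mm10), which encodes connective tissue growth factor, had 393 UMIs or 254 CPM in *Cre-* and 1939 UMIs or 748 CPM in the library labelled PHDTiEC. Its log2 ratio was 1.56 (1.40 to 1.72). It was present in 60 of 120 and in 158 of 217 cells, the median cell held 0.08 and 2.69 UMIs per 10000, and the highest 53.0 and 56.0. So the range of single cells overlapped throughout and the middle of the distribution was shifted. No cell gave more than 13.0% of its UMIs in either library.

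*Inhba* (chr13:16011851-16031621, plus strand), the subunit that forms activin A, had 136 CPM in *Cre-* and 383 CPM in the library labelled PHDTiEC (log2 ratio 1.49, 1.27 to 1.71). The median cell was at 0 in *Cre-* and at 1.69 UMIs per 10000 in the other library. The bases before its start are shown because *Inhba* is the gene of this group with a window in the RefSeq promoter table used here. They span chr13:16011601-16011850 (GRCm38.p6, plus strand), the capitals mark a TATAAA 91 to 86 bases before the start, and the sequence runs 5′ to 3′.
Inhba: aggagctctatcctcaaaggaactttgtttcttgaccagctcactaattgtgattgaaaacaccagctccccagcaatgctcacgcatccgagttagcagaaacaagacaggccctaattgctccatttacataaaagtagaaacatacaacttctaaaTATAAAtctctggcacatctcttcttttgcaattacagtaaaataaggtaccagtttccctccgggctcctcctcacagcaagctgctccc
The motifs searched on both strands were the TATA box as TATAAA, the TEAD motif as GGAATG, the AP-1 motif as TGANTCA, and the CArG box. They occur in 12.4%, 12.6%, 6.75% and 1.47% of 32851 RefSeq promoters, counted over the 250 bases before the start. So a match is a description of these letters and no more.

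*Thbs1* (chr2:118111876-118127133, plus strand), the matricellular protein thrombospondin 1 that can release TGF-beta from its latent form, stood at 337 and 691 CPM (log2 ratio 1.04, 0.89 to 1.18). The ligand genes themselves differed less. *Tgfb1* had 245 and 237 CPM (log2 ratio -0.05, -0.24 to 0.14), *Tgfb2* had 63.9 and 93.4 CPM (0.55, 0.20 to 0.90), and *Lrrc32*, which holds latent TGF-beta at the cell surface, had 75.6 and 114 CPM (0.59, 0.28 to 0.91). Receptors and SMADs lay near or below 0, with log2 ratios of 0.08 for *Tgfbr1*, -0.24 for *Tgfbr2* and -0.48 for *Smad3* (-1.29 to 0.35). Of 28 measured genes of the TGF-beta list, 3 were over 2-fold higher (*Ccn2*, *Inhba* and *Thbs1*) and 1 lower, the activin antagonist *Fst* with 16 and 13 UMIs. The list's median was 0.10 against 0.00 over all 11897 genes with at least 10 UMIs, of which 4.24% were 2-fold higher and 4.85% 2-fold lower.

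*Col12a1* (chr9:79598991-79718831, minus strand), the fibril-associated collagen XII of tissues under tension, was the only collagen chain past 2-fold higher. It had 508 UMIs or 328 CPM in *Cre-* and 2007 UMIs or 775 CPM in the library labelled PHDTiEC (log2 ratio 1.24, 1.10 to 1.38). It was seen in 83 of 120 and 187 of 217 cells, and the median cell held 2.03 and 5.67 UMIs per 10000. The other chains outside the rule were close to even. *Col4a1* of the basement membrane had 1403 and 1512 CPM (0.11), *Col15a1* 1063 and 997 CPM (-0.09), and *Col5a2* 734 and 796 CPM (0.12). The collagen VI genes *Col6a1* and *Col6a3* were somewhat lower in the library labelled PHDTiEC, with log2 ratios of -0.46 (-0.61 to -0.32) and -0.39 (-0.51 to -0.27). Over 21 measured chains the median was -0.02, with 10 above 0 and 11 below. Only *Col12a1* and *Col4a5* (40 and 29 UMIs, -1.21) were past 2-fold. Among all genes with at least 10 UMIs, 4.24% were 2-fold higher and 4.85% 2-fold lower, so the count of chains sets them little apart. *Col1a1*, *Col1a2* and *Col3a1*, which chose the cells, had 5062, 5661 and 4834 CPM in *Cre-* and 4964, 6061 and 4172 CPM in the library labelled PHDTiEC.

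*Tnfsf8* (chr4:63831308-63861347, minus strand), the CD30 ligand of the TNF superfamily, had the highest ratio of all genes that passed the rule. It had 30 UMIs in 20 cells in *Cre-* and 353 UMIs in 76 cells in the library labelled PHDTiEC, or 19.4 and 136 CPM (log2 ratio 2.81, 2.27 to 3.40). The median cell of either library had no UMI of it, and the highest cell held 2.69 and 54.3 UMIs per 10000. No cell gave more than 13.3% of the UMIs. The gene was low elsewhere, with 3.46 and 3.11 CPM in macrophages and 0.446 and 2.56 CPM in mural cells. Bases before its start on the minus strand, chr4:63861348-63861534 (GRCm38.p6), are set beside those of *Cxcl12*, chr6:117168285-117168534 (plus strand). *Cxcl12* is a chemokine gene whose fibroblast level was even between the libraries, at 101 and 102 CPM. Both windows end at the start site in the gene annotation, and neither holds any of the 4 motifs.
Tnfsf8: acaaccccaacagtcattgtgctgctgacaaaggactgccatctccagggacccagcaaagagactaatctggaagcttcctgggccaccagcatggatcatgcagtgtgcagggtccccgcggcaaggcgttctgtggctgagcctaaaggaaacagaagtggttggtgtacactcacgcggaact
Cxcl12: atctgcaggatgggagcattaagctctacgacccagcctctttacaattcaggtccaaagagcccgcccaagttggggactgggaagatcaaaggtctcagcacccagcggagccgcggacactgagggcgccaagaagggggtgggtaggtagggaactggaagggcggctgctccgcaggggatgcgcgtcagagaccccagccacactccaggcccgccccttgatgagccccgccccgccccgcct

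Others of the 12 genes with the highest ratios had fewer UMIs. *Mustn1*, a small nuclear protein of the musculoskeletal system, had 24.5 and 66.4 CPM (log2 ratio 1.44, 0.92 to 1.98). *Bpgm*, which makes 2,3-bisphosphoglycerate, had 31.0 and 77.2 CPM (1.32, 0.86 to 1.80). *Cdc42ep3*, an effector of the GTPase CDC42, had 27.8 and 64.1 CPM (1.21, 0.72 to 1.73), and the TNF ligand *Tnfsf15* 15.5 and 34.7 CPM (1.16). *Gm17167*, *Ildr2* and *Casc3* had log2 ratios of 1.40, 1.33 and 1.29, each on 20 UMIs in *Cre-*.

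**Figure D2:**
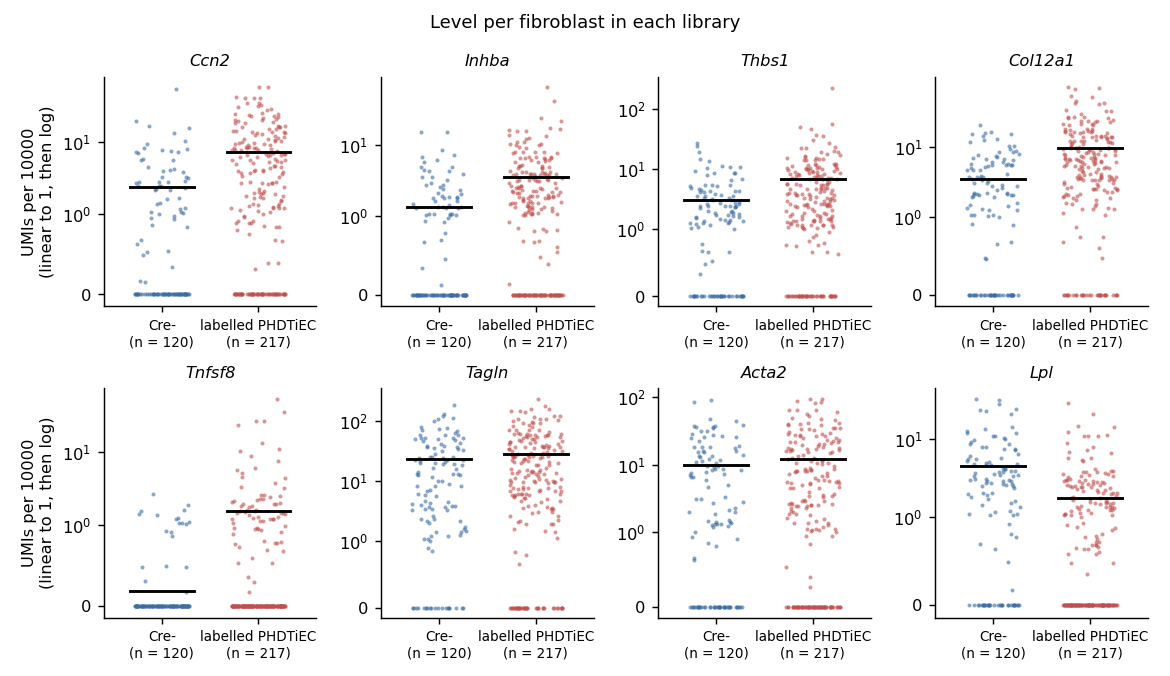
Each point is 1 fibroblast, with its UMIs per 10000 of the gene on the y axis (linear up to 1, then log) for the *Cre-* library (blue, 120 cells) and the library labelled PHDTiEC (red, 217 cells), and the bar is the mean over cells. The clouds overlap in all 8 panels, with a larger share of cells at 0 in *Cre-* for *Ccn2*, *Inhba*, *Col12a1* and *Tnfsf8* and a lower mean for *Lpl* in the library labelled PHDTiEC.

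At equal depth the shares of fibroblasts with *Col12a1* and *Ccn2* stood apart between the libraries, and those of 4 other genes had overlapping intervals. Each cell was thinned to 2000 UMIs, which left out 1 shallower cell in *Cre-* and 2 in the library labelled PHDTiEC. *Col12a1* was then found in 37.0% (28.3% to 46.3%) of the fibroblasts in *Cre-* and in 65.6% (58.8% to 71.9%) in the library labelled PHDTiEC, against 0.164% and 0.650% of macrophages, which should lack it. *Ccn2* was found in 28.6% (20.7% to 37.6%) and 46.5% (39.7% to 53.4%) of the fibroblasts, against 0.982% and 1.44% of macrophages. *Inhba* was found in 21.0% (14.1% to 29.4%) and 35.8% (29.4% to 42.6%), against 0.532% and 0.795%. *Tnfsf8* was found in 2.52% (0.523% to 7.19%) and 10.7% (6.90% to 15.6%) of the fibroblasts, against 0.614% and 0.686% of macrophages. For *Thbs1* the shares were 37.0% (28.3% to 46.3%) and 49.3% (42.4% to 56.2%), against 10.9% and 13.3% of macrophages. *Mustn1* was nearly even, at 5.88% (2.40% to 11.7%) and 6.98% (3.96% to 11.2%), against 0.614% and 0.469% of macrophages. The macrophages had a median of 7930 and 8505 UMIs before thinning. The unthinned fibroblast shares were 69.2% and 86.2% for *Col12a1*, 46.7% and 70.0% for *Inhba* and 16.7% and 35.0% for *Tnfsf8*.

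The genes were often found in the same cells. Without thinning, 25 of 120 fibroblasts in *Cre-* (20.8%) and 99 of 217 in the library labelled PHDTiEC (45.6%) held UMIs of all 4 of *Ccn2*, *Inhba*, *Thbs1* and *Col12a1*. Fibroblasts with none of the 4 were 11 (9.17%) and 3 (1.38%). Since each gene alone was also found in more cells, these shares are a description of the overlap and no measure of coupling.

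*Ccn2*, *Col12a1* and *Inhba* were not alike across cell classes. *Ccn2* was also higher in the library labelled PHDTiEC in mural cells (113 and 304 CPM, log2 ratio 1.43), endothelial barcodes (18.3 and 49.8 CPM, 1.44), macrophages (10.1 and 22.8 CPM, 1.18) and proximal tubule barcodes (12.3 and 19.5 CPM, 0.66). *Col12a1* was higher in the mural cells too, at 20.0 and 40.9 CPM (1.03), and its ratio was larger than in the fibroblasts, at far lower levels, in macrophages (1.73 and 6.85 CPM, 1.99) and endothelial barcodes (3.30 and 10.4 CPM, 1.66). *Inhba* had 21.8 and 37.0 CPM in mural cells and 13.0 and 12.2 CPM in macrophages. *Bpgm* was not higher in the mural cells, with a log2 ratio of -0.25. Free RNA from fibroblasts can add low counts to other barcodes, and its part in the low values here was not tested.

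**Figure D3:**
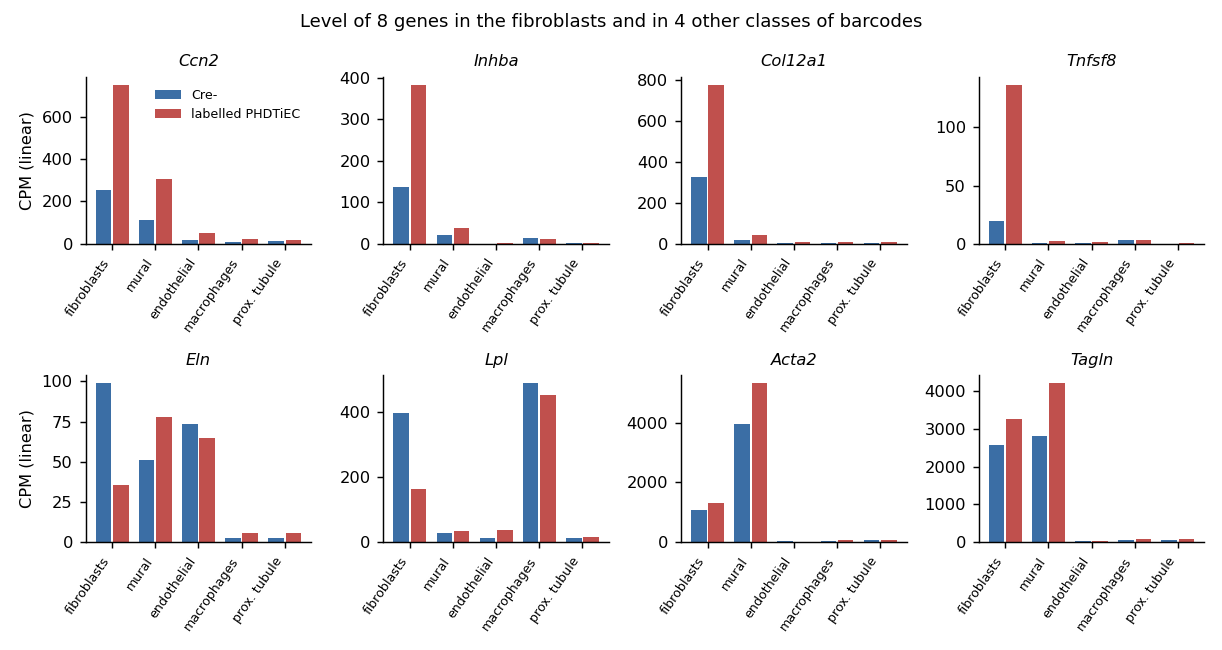
Bars give the CPM (linear axis from 0) of 8 genes in the fibroblasts and in 4 other classes of barcodes, blue for *Cre-* and red for the library labelled PHDTiEC, with 1 library per bar and no error bar because there is no replicate. *Col12a1*, *Inhba* and *Tnfsf8* stand almost only in the fibroblasts, *Ccn2* also in mural cells, *Eln* in fibroblasts, mural and endothelial cells, *Acta2* and *Tagln* in fibroblasts and mural cells, and *Lpl* in fibroblasts and macrophages.

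Contractile genes stood slightly higher in the library labelled PHDTiEC, none of the abundant ones by 2-fold. *Acta2*, the smooth muscle actin that defines myofibroblasts, had 1073 and 1307 CPM (log2 ratio 0.28, 0.20 to 0.37). *Tagln* (transgelin) had 2558 and 3260 CPM (0.35, 0.30 to 0.40), *Tpm1* (tropomyosin) 1477 and 1871 CPM (0.34) and *Myl9* (myosin light chain) 260 and 349 CPM (0.42). The intermediate filament gene *Des* was even, at 238 and 229 CPM. Of 14 measured genes 12 lay above 0 and the median was 0.32, and only *Myh11* was past 2-fold, on 11 and 48 UMIs of which 27.3% and 22.9% came from 1 cell. Over all 11897 genes with at least 10 UMIs, 5990 lay above 0 and 4.24% were 2-fold higher. In mural cells *Acta2* had 3960 and 5319 CPM (0.43) and *Tagln* 2811 and 4201 CPM (0.58), so the difference was not smaller there. At 2000 UMIs per cell, 46.2% (37.0% to 55.6%) of the fibroblasts in *Cre-* and 54.4% (47.5% to 61.2%) in the library labelled PHDTiEC held an *Acta2* UMI, against 2.95% and 3.68% of macrophages. The intervals overlap, and without thinning the shares were 67.5% and 70.0%.

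Other genes of the activated myofibroblast split. *Runx1*, a transcription factor, had 120 and 170 CPM (log2 ratio 0.50, 0.25 to 0.76), *Postn* (periostin) 112 and 136 CPM (0.27, 0.01 to 0.54) and the protease gene *Fap* 16.8 and 18.1 CPM (0.11). *Timp1*, an inhibitor of matrix metalloproteinases, was lower in the library labelled PHDTiEC, at 1421 and 1108 CPM (-0.36, -0.44 to -0.28). *Cthrc1*, a secreted protein of matrix-making fibroblasts, was far lower, with 46 UMIs in 16 cells against 20 UMIs in 9 cells, or 29.7 and 7.72 CPM (-1.94, -2.78 to -1.16). Of 14 measured genes, 2 were 2-fold higher (*Ccn2* and *Col12a1*) and 1 lower (*Cthrc1*), and the median was 0.08. The shares over all genes with at least 10 UMIs were 4.24% higher and 4.85% lower.

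Among the other matrix genes the differences went both ways. *Mgp* (matrix Gla protein) had 33022 and 29283 CPM (log2 ratio -0.17), and the proteoglycan *Bgn* was even at 0.02. *Ccdc80* had 622 and 973 CPM (0.65, 0.54 to 0.76). Several elastic fiber genes were lower in the library labelled PHDTiEC. *Eln* (elastin) had 153 UMIs or 98.8 CPM in *Cre-* and 92 UMIs or 35.5 CPM in the other library (-1.48, -1.87 to -1.09), and 22.9% of the *Cre-* UMIs came from 1 cell. *Fbn2* (fibrillin 2) had 39 and 14 UMIs (-2.22), *Fbln1* a log2 ratio of -0.95, *Fbln5* of -0.64 and *Mfap4* of -0.99, whereas *Fbn1* (0.02) and *Mfap5* (0.02) were even and *Fbln2* (0.60) higher. Over 42 measured matrix genes 25 lay above 0 and 17 below, with a median of 0.05. Past 2-fold were 2 genes higher (*Thbs1*, *Has2*) and 3 lower (*Fbn2*, *Eln*, *Spon2*). Of all genes with at least 10 UMIs, 4.24% were 2-fold higher and 4.85% 2-fold lower. *Has2* had 6 and 28 UMIs, of which 50% and 42.9% came from 1 cell, and *Spon2* had 19 and 12 UMIs. In mural cells *Eln* went the other way, with 51.2 and 77.9 CPM. Of the genes that process collagen, the cross-linking enzymes *Lox* and *Loxl2* had log2 ratios of 0.37 (0.18 to 0.56) and 0.36 (0.18 to 0.54) and the collagen chaperone *Serpinh1* -0.42 (-0.51 to -0.33). The median of these 23 was -0.05.

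*Lpl*, the lipoprotein lipase that frees fatty acids from circulating particles, had the most UMIs of the 12 named lower genes. It had 616 UMIs in 88 of 120 cells in *Cre-* and 426 UMIs in 119 of 217 cells in the library labelled PHDTiEC, or 398 and 164 CPM (log2 ratio -1.27, -1.46 to -1.09). The median cell held 2.65 and 0.68 UMIs per 10000. After thinning to 2000 UMIs it was found in 39.5% (30.7% to 48.9%) and 21.4% (16.1% to 27.5%) of the fibroblasts, and in 34.4% and 30.8% of macrophages, a class that makes lipoprotein lipase itself at 487 and 452 CPM. *Igf1*, the growth factor, had 59.4 and 25.9 CPM (-1.20, -1.68 to -0.73), with 22.8% of the *Cre-* UMIs from 1 cell. *Ramp2*, the partner of the adrenomedullin receptor, had 103 and 49.0 CPM (-1.08), and the nucleoside transporter *Slc29a1* 56.8 and 24.7 CPM (-1.20). The linker histone *Hist1h1c* and the histone *Hist1h2bc* had log2 ratios of -1.08 and -1.06. *H2-Eb1* (-1.36) and *C1qa* (-1.35) are an MHC class II gene and a macrophage complement gene. *H2-Eb1* moved together with the summed macrophage markers of 309 and 183 CPM, and *C1qa* is itself a member of that sum. The part of macrophage RNA in both genes was not tested. The remaining 3 were *Ermp1*, *Pcna* and *Lmcd1*, between -1.07 and -1.03.

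Signals of other pathways were small or rested on few cells. In the PDGF group *Pdgfa* had 74.9 and 125 CPM (log2 ratio 0.74, 0.42 to 1.05) and the receptor *Pdgfrb* 258 and 311 CPM (0.27). In the WNT and hedgehog group *Wnt4*, a stromal WNT ligand, had 371 and 468 CPM (0.33, 0.19 to 0.48) and *Wnt2* 59.4 and 92.6 CPM (0.64), and the median over 19 genes was 0.11. The 4 genes of that group past 2-fold lower (*Wnt9a*, *Sfrp2*, *Sfrp4* and *Gli1*) had 25 UMIs or fewer each over both libraries. *Igfbp5*, which binds insulin-like growth factors, had 381 and 659 CPM (0.79, 0.65 to 0.93), and *Bdnf* had no UMI in *Cre-* and 12 in the library labelled PHDTiEC. With the *Cre-* fibroblasts set at a floor of 3 UMIs that is 1.26 on the log2 scale, a value that depends on the floor.

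Of 31 measured chemokine and inflammation genes, 2 were past 2-fold higher and 7 lower, where 4.24% and 4.85% of all genes with at least 10 UMIs were. Of these 31, 13 lay above 0 and 18 below, and the median was -0.13 and stayed negative in all 21 alternatives. The even ones included *Cxcl14* (723 and 717 CPM), *Cxcl16* (280 and 278 CPM), *Cxcl12* and *Il6* (34.2 and 36.3 CPM). The lower *Ccl2*, the main monocyte chemokine, had 71.0 and 32.4 CPM (-1.13), but 56.4% of its *Cre-* UMIs came from 1 cell, and *Ccl7*, higher at 1.92, had 6 and 38 UMIs with 83.3% of the *Cre-* UMIs in 1 cell. The other lower genes were *Ccl8*, *Ccl11*, *Cxcl5*, *Cxcl9*, *Lcn2* and *Ptgs2*. From 1 cell came 47.8%, 66.7%, 51.2%, 93.3% and 43.1% of the *Cre-* UMIs of *Ccl8*, *Ccl11*, *Cxcl5*, *Cxcl9* and *Lcn2*. The other higher gene, *Cxcl10*, drew 69.6% of its UMIs in the library labelled PHDTiEC from 1 cell. Among 26 interferon-induced genes the median was 0.25, and the 4 past 2-fold (*Ifit1*, *Ifit3*, *Ifit3b* and *Ifi44*) drew at least 26.6% of their UMIs in the library labelled PHDTiEC from 1 cell. The complement regulator *Serping1* stood at 1237 and 1514 CPM (0.29).

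Genes of hypoxia differed in both directions and most glycolysis genes were lower in the library labelled PHDTiEC. None of 23 measured HIF target genes was past 2-fold in either direction, 8 lay above 0 and 15 below, and their median log2 ratio was -0.07, which changed sign in 2 of 21 alternatives. The highest was the histone demethylase gene *Kdm3a*, with 12 and 40 UMIs (0.99, 0.04 to 2.06). *Vegfa*, the endothelial growth factor, had 36.8 and 31.3 CPM (-0.24), *Slc2a1*, the glucose transporter, 21.3 and 15.4 CPM (-0.46), and *Hk2* (hexokinase 2) 197 and 245 CPM (0.31, 0.11 to 0.52). Over all 11897 genes with at least 10 UMIs, 5907 lay below 0. Of 18 measured glycolysis genes 16 lay below 0 and the median was -0.30, with *Gapdh* at 706 and 568 CPM (-0.31), *Ldha* at 377 and 306 CPM (-0.30), *Aldoa* at 400 and 312 CPM (-0.36) and *Pkm* at 243 and 188 CPM (-0.37). *Hif1a* (-0.01), *Epas1* (0.18) and *Arnt* (0.14), the HIF subunits, were even. Immediate early genes, which dissociation can induce, were lower for 15 of 18 with a median of -0.19, for example *Fos* at 2821 and 2500 CPM, *Ier2* at -0.60 and *Atf3* at -0.64, while *Hspa1b* was 0.74. Their part in the other results was not tested.

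**Figure D4:**
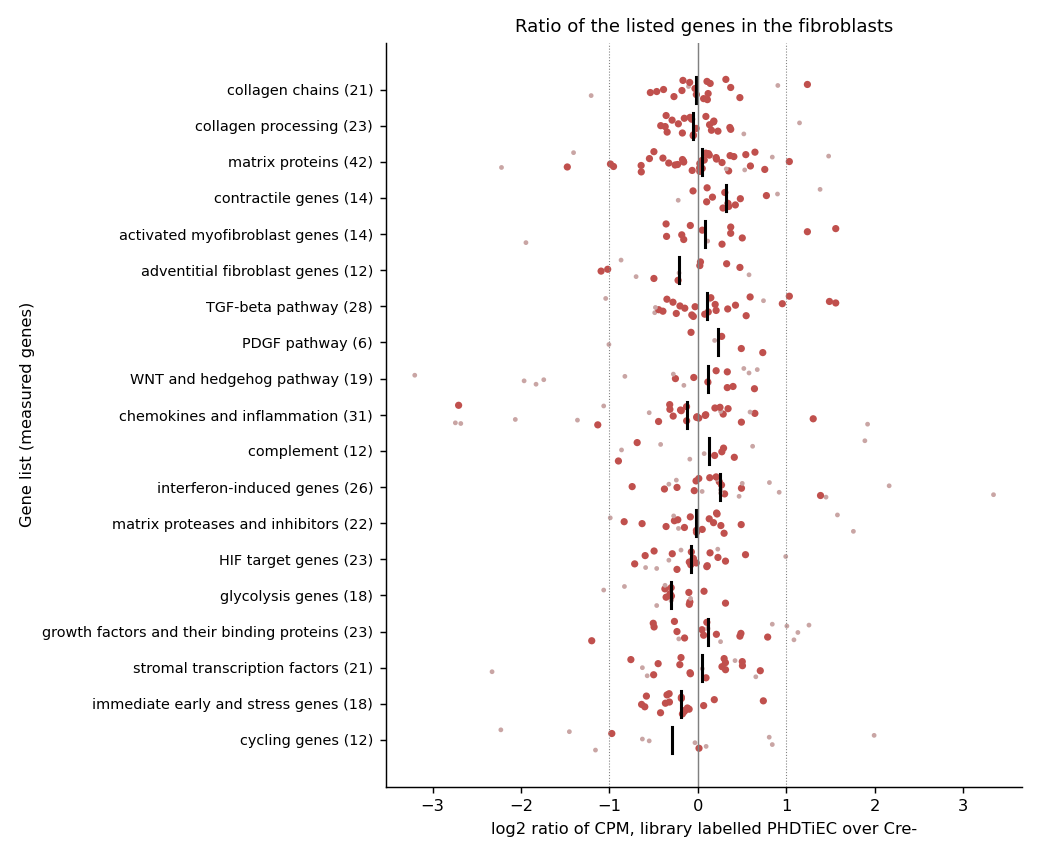
Each point is 1 listed gene with at least 10 UMIs in the fibroblasts at its log2 ratio of CPM (library labelled PHDTiEC over *Cre-*), large red points having at least 100 UMIs, and black bars give the list medians. The bars lie between -0.30 (glycolysis) and 0.32 (contractile genes), the dotted lines mark 2-fold, and most points beyond them are small ones with few UMIs.

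The fibroblasts fell into 7 subclusters when they were clustered without the rule genes, and each held cells of both libraries. Subclusters 1 to 3 each held between 19.4% and 23.0% of the fibroblasts of either library. Subcluster 4 held 11.7% (6.53% to 18.8%) in *Cre-* and 20.3% (15.1% to 26.2%) in the library labelled PHDTiEC. Subcluster 5 held 16.7% (10.5% to 24.6%) and 9.68% (6.09% to 14.4%). The part of these shares in the other results was not tested, except where a reweighted value is given. The clusters are named by their leading genes, which made them and are no results. Subcluster 1 (76 cells) was led by *Cxcl12*, *Inhbb*, *Heph* and *Smoc2*. Subcluster 2 (69 cells) was led by *Actg2*, *Igfbp5*, *Timp1*, *Mustn1*, *Pi16* and *Acta2*, with *Acta2* at 1830 CPM in *Cre-* and 2691 CPM in the library labelled PHDTiEC. Its leading genes also included the macrophage gene *C1qb* and the pericyte gene *Cspg4*. Over both libraries macrophage markers summed to 442 CPM in it against 169 CPM in the other fibroblasts. Pericyte and smooth muscle markers summed to 193 against 107 CPM. The part of this RNA in its levels was not tested. Subcluster 3 (68 cells) was led by the early response genes *Nr4a1*, *Gadd45b*, *Rgs16* and *Gem* with the hyaluronan synthase *Has1*. Subcluster 4 (58 cells) was led by *Npr3*, *Col7a1*, *Vcan* and *Col12a1*, apart from *Gm26917*, of which 87.2% lay in 1 cell. Subcluster 5 (41 cells) was led by *Fbln5*, *Slc40a1*, *Ogn*, *Cx3cl1* and *Fbln1*.

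The 2 smallest subclusters were of another kind. Subcluster 6 had 16 cells with a median of 32464 UMIs, and its leading genes *Cdh6*, *Lcn2* and *Pax8* are tubule genes, so it keeps no fibroblast name. Without it 18 genes in place of 43 were at least 2-fold lower, while *Ccn2*, *Inhba*, *Tnfsf8*, *Col12a1* and *Lpl* stayed past 2-fold. Subcluster 7 had 9 cells, led by *Hist1h1b*, *Ube2c*, *Prc1*, *Cenpf* and *Top2a*, and is called cycling-like.

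**Figure D5:**
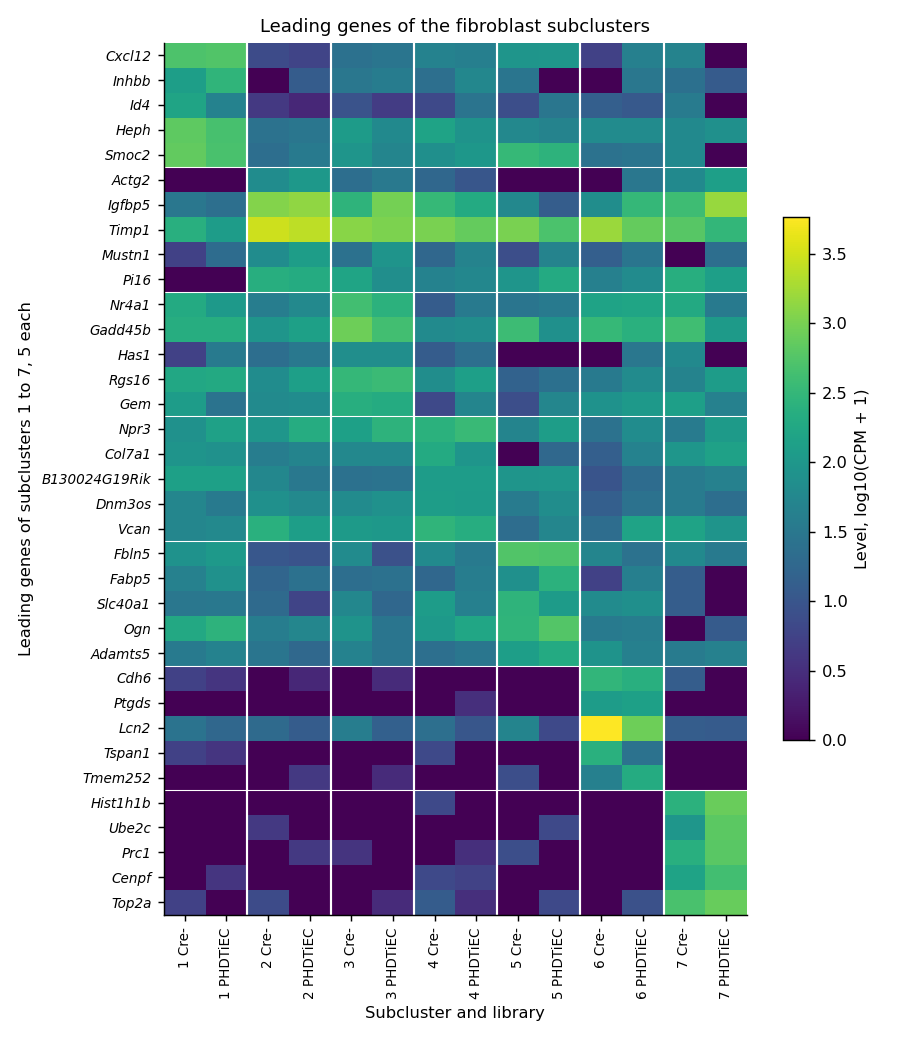
The heat map gives the level, as log10 of CPM plus 1, of the 5 leading genes of each of the 7 subclusters (rows) in each subcluster and library (columns). Genes of subclusters 6 and 7 are mostly near 0 elsewhere, genes of subclusters 1 to 5 differ by degree, and *Gm26917* was left out because 1 cell held most of its UMIs.

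The leading differences were also present inside the subclusters. *Ccn2*, *Inhba*, *Tnfsf8*, *Thbs1*, *Npr3*, *Ccdc80* and *Cdc42ep3* were higher in the library labelled PHDTiEC in 7 of 7 subclusters. Subcluster 6 held 4 and 12 cells of the *Cre-* and PHDTiEC libraries and subcluster 7 held 6 and 3, so their levels rest on few cells. Some gaps were small, as for *Inhba* in subcluster 4 at 222 and 245 CPM. For *Ccn2* the levels in *Cre-* and in the library labelled PHDTiEC were 109 and 192 CPM in subcluster 1, 111 and 1093 CPM in subcluster 2, and 519 and 977 CPM in subcluster 3. In subclusters 4 to 7 they were 308 and 719, 254 and 544, 116 and 318, and 297 and 1613 CPM. The gap was thus widest in the *Acta2*-rich subcluster 2 and in the 9 cycling-like cells. *Col12a1* was higher in 6 of 7, with 511 and 1260 CPM in subcluster 1 and 486 and 406 CPM in subcluster 7.

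Lower genes and the contractile genes were less even. *Lpl* and *Timp1* were lower in the library labelled PHDTiEC in 7 of 7 subclusters, and *Lpl* stood at 499 and 115 CPM in subcluster 2 and at 783 and 579 CPM in subcluster 5. *Eln* was lower in 5 of 7, with 155 and 9.35 CPM in subcluster 3 but 162 and 181 CPM in subcluster 5, whose leading genes include other elastic fiber genes. Among these *Fbln5* had 543 and 515 CPM inside subcluster 5 and 52.6 and 30.6 CPM in the other fibroblasts. *Fbln1* had 226 and 152 CPM inside it and 66.1 and 33.9 CPM outside, and *Mfap4* 226 and 193 CPM and 81.7 and 37.6 CPM. *Acta2* was higher in 4 of 7, with 1830 and 2691 CPM in subcluster 2 and 1390 and 940 CPM in subcluster 3. Without subcluster 2 the share of fibroblasts with an *Acta2* UMI at 2000 UMIs per cell was 46.3% in *Cre-* and 44.7% in the library labelled PHDTiEC, so its direction rested on those 69 cells. The cells of a subcluster in 1 library come from 1 mouse, and these levels are no replicates.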

How the data were processed

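Injured kidneys of 1 *Cre-* and 1 PHDTiEC mouse were profiled by single-cell RNA-seq. The authors aligned the reads to mm10 with Cell Ranger 4, per the file headers, and deposited raw UMI counts per gene and barcode, not normalized and with no filter on cells: all 6794880 barcodes of the kit are listed in each library. A cell hashing library named in the labels was not analysed here.

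Barcodes were kept with 500 to 100000 UMIs, at least 200 genes, at most 50% mitochondrial UMIs and log10 of the genes at least 0.8 times log10 of the UMIs. Fibroblasts were chosen by the marker rule given at the start. The members and the gene lists were chosen with earlier results of these data known. Counts were summed over fibroblasts per library, and ratios of CPM were given exact 95% Clopper-Pearson intervals. With 1 library per genotype no test was run, and intervals cover counting error only. The ratios and intervals were tested on simulated counts drawn per gene and library, and the thinning on simulated cells. UMIs of a gene that gather in single cells were not simulated. Counts of genes used a minimum of 100 UMIs and list medians one of 10 UMIs over both libraries.

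Besides listed genes, the genes named were the 12 highest and 12 lowest ratios among genes with at least 100 UMIs, seen in at least 15 fibroblasts of the higher library and with no cell giving over 25% of its UMIs. Mitochondrial, ribosomal protein, haemoglobin and rule genes were left out. The 15 genes of highest ratio over other barcodes and the leading genes of subclusters were also named. Subclusters came from 2000 variable genes without rule genes, 15 principal components and Leiden clustering at a resolution of 0.6. Doublets were not removed in the values given, and an alternative left out the 8% of barcodes with the highest doublet scores. Other alternatives changed the barcode filters, the marker thresholds, the scaling, the minimum of UMIs, the thinning and the subtraction of free RNA. Leaving out or reweighting subclusters, and leaving out the top cell, were alternatives chosen after seeing the data. Python 3.11.15, numpy 2.4.6, scipy 1.17.1, leidenalg 0.10.2, R 4.3.3 and edgeR 4.0.16 (TMM factors) were used. Gene positions came from GENCODE vM21, in which 32158 of 32285 gene IDs were found, and promoter windows from RefSeq (GRCm38.p6). Some genes that meet these rules are not reported here.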

Additional observations from a re-analysis of the deposited data

How the results depend on the processing

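No paired analysis was possible because there is 1 library per genotype. The share ratio kept its direction in all 15 alternatives and was 1.80 at most. The *Acta2* share difference and the collagen chain, adventitial, activated myofibroblast and HIF target medians changed sign under at least 1 alternative. Genes at least 2-fold lower numbered 43, against 21 without barcodes of high doublet scores, 18 without subcluster 6, 26 with means over cells, 66 after subtracting free RNA, and 105 and 1098 with a halved minimum and a minimum of 1 UMI per library. Genes at least 2-fold higher numbered 38, against 22 without subcluster 2, 58 with means over cells, and 90 and 712 with those lower minimums. The collagen chain median (-0.02) was -0.11 at a threshold of 40, 0.15 without subcluster 4 and -0.10 with each subcluster at its share of all fibroblasts. The adventitial median (-0.22) was 0.063 at that threshold. The contractile median (0.32) was 0.20 without subcluster 2, 0.46 without subcluster 3 and 0.22 with the same weighting, under which the activated myofibroblast median (0.081) was -0.078. The *Acta2* share difference of 8.20 percentage points was 5.62 at 1000 UMIs, 2.55 unthinned and -1.61 without subcluster 2. Clustering at a resolution of 0.3 gave 4 subclusters in place of 7. The causes were not tested.

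Over 20 alternatives *Ccn2* stayed between 1.14 and 2.01 on the log2 scale, *Inhba* between 1.33 and 1.78, *Col12a1* between 1.12 and 1.45 and *Tnfsf8* between 2.61 and 3.13, and *Lpl* and *Cthrc1* stayed past 2-fold lower. *Acta2* ranged from 0.00 to 0.53. Past 2-fold in the values given but not under every alternative were *Tnfsf15*, *Thbs1* and the named lower genes other than *Lpl*. One library per genotype and 120 fibroblasts in *Cre-* limit every value.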

Other observations

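A list of 12 YAP and TEAD target and pathway genes was chosen after values were seen. In the fibroblasts its median log2 ratio of the library labelled PHDTiEC over *Cre-* was 0.34, with *Ccn1* even at 309 and 299 CPM. The median was 0.41 in mural cells, 0.34 in proximal tubule barcodes, 0.24 in macrophages and 0.15 in endothelial barcodes. The highest member in the fibroblasts, *Ankrd1*, was seen in 4 and 9 cells, and 1 cell gave 66.7% and 59.6% of its 9 and 89 UMIs. The list of TNF superfamily ligands was likewise chosen after the values of *Tnfsf8* and *Tnfsf15* were seen, which are 2 of its 3 members past 2-fold. The other was *Tnf*, with 3 and 13 UMIs, of which 66.7% in *Cre-* came from 1 cell. Of its 11 genes 7 were measured, with 4 above 0 and 3 below, *Tnfsf9* (-0.65, -1.28 to -0.01), *Tnfsf10* (-0.74) and *Tnfsf12* (-0.17). MHC class II genes, chosen in the same way, were lower in the fibroblasts for 6 of 6 measured genes and higher in endothelial barcodes, where the median was 1.45. In the fibroblasts macrophage markers moved with them, at a sum of 309 and 183 CPM with 6 of 6 measured genes below 0, and their part was not tested. In *Cre-*, 1 cell gave 37.2% of the *Cd74* UMIs and 26.4% of the *H2-Aa* UMIs.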
